A study of Mus musculus with 12 samples.

Results

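The cells described here are the endothelial cells of the postnatal day (P) 7 mouse dentate gyrus, that is, the cells that line its blood vessels. They were selected on RNA among cells with more than 500 genes and less than 15% mitochondrial unique molecular identifiers (UMIs, each standing for 1 captured transcript). A cell was taken when at least 3 of the 7 markers Cldn5, Flt1, Pecam1, Cdh5, Ly6c1, Esam and Slco1a4 were detected and at most 1 of the 4 mural and fibroblast genes Pdgfrb, Kcnj8, Col1a1 and Col3a1. This gave 293 endothelial cells of 24213 filtered cells. There were 144 in the wild-type library, 31 in the library labelled Larp7 f/f;nestin-Cre (nestin-Cre below) and 118 in the library labelled Larp7 f/f;Emx1-Cre (Emx1-Cre below). Each library pooled 3 to 4 dissected dentate gyri from littermates, and the tissue was digested with accutase. With a single library for each genotype, no difference between genotypes has a replicate check and no test was possible.

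The animals called wild-type carried the floxed Larp7 alleles without Cre, and the floxed alleles were therefore common to all 3 libraries. In the nestin-Cre line a nestin transgene drives Cre in neural stem and progenitor cells, and in the Emx1-Cre line Cre sits in the Emx1 locus, which is active in progenitors of the cortex and hippocampus. The study also reports nestin-Cre activity in many cell types across the brain and in kidney, stomach and lung. Endothelial cells of the brain come from the mesoderm and grow into the neural tube from outside. They are thus outside the neural lineages that both drivers are used for, but whether either driver acts in these cells was not tested. For the mutant libraries the title and the genotype entry of the labels name opposite drivers, and the titles were followed here. The cell number that the methods give for the nestin-Cre library is larger than the barcodes of the library titled Emx1-Cre and smaller than those of the library titled nestin-Cre.

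Brain endothelial cells form the blood-brain barrier: tight junctions close the space between cells, little is carried across in vesicles, and transporters in the membrane bring in glucose, amino acids, lactate and lipids. Wnt ligands of neural cells act on endothelial Frizzled receptors to induce and keep this state. VEGF receptors, the Tie receptors, Notch and BMP signals guide the sprouting of new vessels, which is still under way in the first postnatal weeks. ERG, FLI1 and ETS1, transcription factors of the ETS family, bind a GGAA core and control many genes of endothelial identity.

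The promoters of identity genes are shown first because they hold a sequence feature that the rule did not use. Of 30 endothelial identity genes outside the rule, 16 had a RefSeq promoter window on GRCm38.p6, and the 250 bases before the start were searched on both strands. The letters CAGGAAG were present in 9 of these 16 genes (56.25%), against 12.1% of all genes with a window. Of the other forms, CAGGAA, which lies within CAGGAAG, was found in 12 of 16 (75% against 28.3% of all genes), GGAAGTG in 3 of 16 (18.75% against 9.77%), and CCGGAAG in 0 of 16 (against 7.83%). Among the 17 barrier transporter genes with a window, 1 held CAGGAAG, and so did 0 of 7 granule lineage marker genes and 2 of 6 microglia marker genes. The letters were in 2 of 10 of the leading genes with a window, 1 of 9 glial marker genes and 0 of 8 mural marker genes. These counts are descriptions of letters in a window and do not show binding. The windows of the 3 matching identity genes with the highest wild-type level are printed 5′ to 3′ on the strand of the gene, with CAGGAAG, or its reverse complement, in capitals. They are Itm2a on the minus strand at chrX:107403361-107403610, Egfl7 on the plus strand at chr2:26580833-26581082, which holds the letters at 2 places, and Cd34 on the plus strand at chr1:194938571-194938820.
Itm2a: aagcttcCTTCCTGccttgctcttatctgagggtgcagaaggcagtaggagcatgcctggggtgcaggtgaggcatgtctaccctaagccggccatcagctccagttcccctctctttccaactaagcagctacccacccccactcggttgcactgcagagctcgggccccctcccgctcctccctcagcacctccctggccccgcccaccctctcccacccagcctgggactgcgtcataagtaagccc
Egfl7: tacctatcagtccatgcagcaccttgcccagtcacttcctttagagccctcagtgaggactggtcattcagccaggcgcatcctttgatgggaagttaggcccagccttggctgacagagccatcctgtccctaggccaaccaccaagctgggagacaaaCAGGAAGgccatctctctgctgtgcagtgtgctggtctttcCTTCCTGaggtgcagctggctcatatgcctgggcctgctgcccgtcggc
Cd34: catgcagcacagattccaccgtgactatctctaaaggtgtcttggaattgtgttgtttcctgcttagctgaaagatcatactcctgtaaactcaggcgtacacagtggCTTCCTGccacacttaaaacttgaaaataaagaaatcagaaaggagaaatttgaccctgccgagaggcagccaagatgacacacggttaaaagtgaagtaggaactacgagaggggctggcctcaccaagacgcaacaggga

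The state of the cells differed between libraries and bears on every comparison. Endothelial cells were 1.31% of filtered cells in the wild-type library (95% exact binomial interval 1.11 to 1.54%), 0.464% in nestin-Cre (0.315 to 0.658%) and 1.81% in Emx1-Cre (1.498 to 2.16%). All intervals cover counting error only, and with 1 library each, genotype and library preparation cannot be told apart. The median endothelial cell held 1838 UMIs in wild-type, 4540 in nestin-Cre and 4955 in Emx1-Cre. Over all filtered cells the medians were 1782, 3644 and 3873. The libraries held 28918491, 26689878 and 28537738 UMIs, and their endothelial cells 403666, 163542 and 671253. Between 11 and 23 barcodes were shared between pairs of libraries, and no shared barcode was an endothelial cell in both.

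Many endothelial cells also carried RNA of other cell classes. Rules of 3 or more detected genes were set for mural and stromal cells, microglia and the granule neuron lineage, and of 4 or more for astrocytes and radial glia. Of the wild-type endothelial cells 70 met no such rule (48.6%), of the nestin-Cre cells 21 (67.7%) and of the Emx1-Cre cells 24 (20.3%). In Emx1-Cre, 79 of the 118 cells met the granule lineage rule, 78 the glial rule and 59 the mural rule, and 47 met 3 of them at once. In wild-type the same rules were met by 33, 48 and 21 of 144 cells. Microglia, counted in the same manner, met another rule in 44.6% of wild-type, 21.8% of nestin-Cre and 25.4% of Emx1-Cre cells. The source of these reads was not tested. Values below are therefore given over all endothelial cells and, where they differ, over those that met no other rule (without mixed cells). That set is not equally clean in the 3 libraries, because a shallow cell meets a rule less readily. Its median cell held 1271 UMIs in wild-type, 3983 in nestin-Cre and 3783.5 in Emx1-Cre. Its sums of mural, glial and granule lineage markers, given below, were highest in wild-type. Every ratio without mixed cells carries this difference. Without the cells that met another rule the endothelial share was 0.637% in wild-type, 0.314% in nestin-Cre and 0.367% in Emx1-Cre, so that the higher share of the Emx1-Cre library was not kept.

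**Figure D1:**
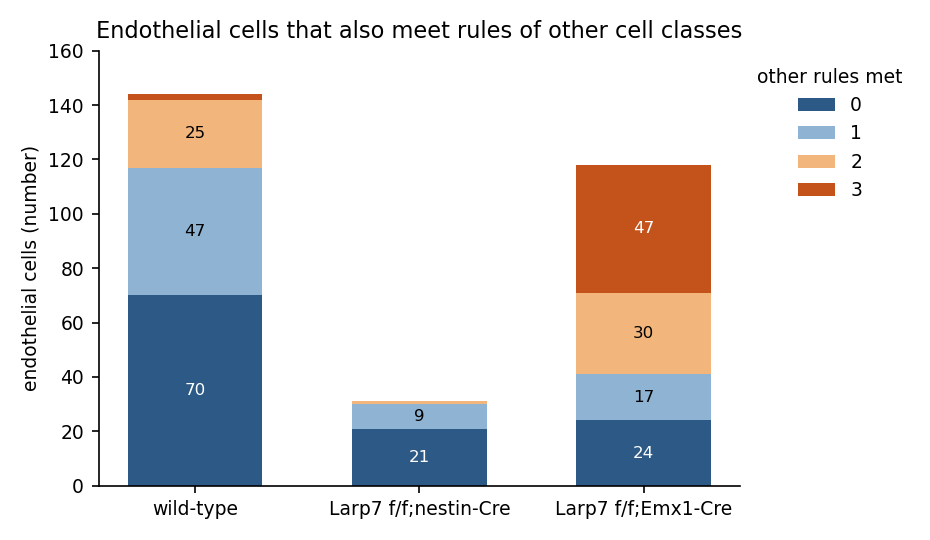
Number of endothelial cells (y axis) in each library, split by how many rules of other cell classes a cell also met. No other rule was met by 70 of 144 wild-type, 21 of 31 nestin-Cre and 24 of 118 Emx1-Cre cells.

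Red cell RNA also differed between the libraries. In 17 of 144 wild-type endothelial cells (11.8%) haemoglobin made up more than 5% of the UMIs, with a highest share of 32.1%, and no endothelial cell of either mutant library passed that limit. The median cell held 0% in wild-type and in nestin-Cre and 0.874% in Emx1-Cre, where the highest cell held 3.67%. Hbb-bs, a beta globin, stood at 15325 counts per 1000000 UMIs (CPM) in wild-type, where 1 cell gave 63.0% of its UMIs. It stood at 18.3 CPM in nestin-Cre and 3902 CPM in Emx1-Cre. The source of this RNA was not tested.

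The rule itself had a soft edge. The 75 wild-type cells with exactly 3 markers, just inside the threshold, held the 30 identity genes at 4281 CPM, and the 124 cells with 2 markers, just outside, at 2567 CPM. The 5 wild-type cells with all 7 markers stood at 11800 CPM. Of the 7 markers that chose the cells, Cldn5, the main claudin of brain endothelium, was the most abundant at 4169 CPM in wild-type, and Slco1a4, an organic anion transporter, the least at 52.0 CPM. Cldn5 was detected in 141 of 144 wild-type cells and Slco1a4 in 17, so that the transporter added little to the choice.

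Summed over cells, endothelial genes that the rule did not use were present in all 3 libraries. Not every cell held them. In wild-type, 70 of the 75 cells with 3 markers and 38 of the 39 with 4 had any UMI of the 30 identity genes. In Emx1-Cre, 94 of the 118 cells also met the rule of another class. UMIs of the 30 identity genes summed to 7529 CPM (7263 to 7801, exact Poisson interval) in wild-type endothelial cells, 10811 CPM (10313 to 11327) in nestin-Cre and 6620 CPM (6427 to 6818) in Emx1-Cre. The granule lineage held 78.4 CPM and the microglia 474 CPM of the same genes in wild-type. All 30 genes were detected in every library. The place of Emx1-Cre changed with the cells chosen. Over cells that met no other rule the sums were 10269, 13254 and 12675 CPM, so that the Emx1-Cre library passed from lowest to above wild-type. Over cells that did meet another rule they were 5888, 6282 and 5571 CPM, with Emx1-Cre again lowest. The nestin-Cre sum was the highest in each of these sets.

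**Figure D2:**
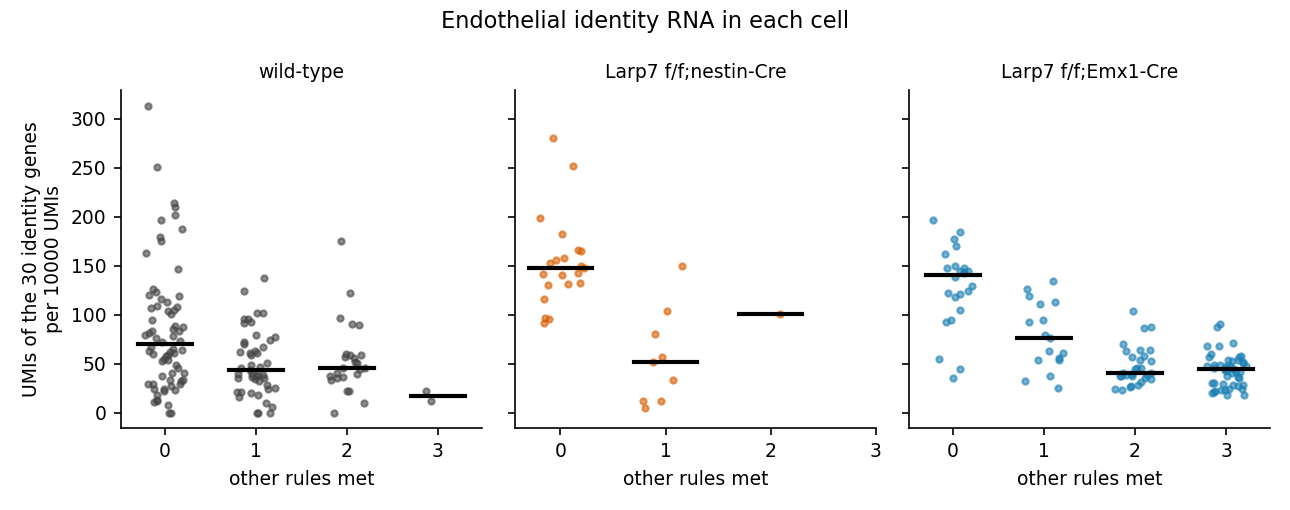
UMIs of the 30 identity genes per 10000 UMIs of a cell (y axis) against the number of other class rules the cell met (x axis), with 1 point per endothelial cell and bars at medians. Among cells that met no other rule the medians were 69.5 in wild-type, 148 in nestin-Cre and 141 in Emx1-Cre, and in the Emx1-Cre library the median was 43.9 for cells that met 3.

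Because every gene of these cells was in view when the marker rule was made, levels against other cells are a description. Of 3424 genes with at least 20 UMIs in wild-type endothelial cells, 160 (4.67%) were at least 10-fold higher in endothelial cells than in all other wild-type cells. Among the identity genes 27 of 28 measured passed that fold, with a median difference of 4.67 on the log2 scale, and over all genes the median was -0.03. The exception was S1pr1, a sphingosine phosphate receptor that astrocytes also express, at 76.8 CPM in endothelial and 57.8 CPM in other cells. The limit of 20 UMIs was set in endothelial cells alone, so identity genes weak there were not counted. These were Sox7 with 13 UMIs and Tal1 with 12.

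Among the receptors of identity, Kdr, the main VEGF receptor, stood at 567 CPM in wild-type, 764 CPM in nestin-Cre and 471 CPM in Emx1-Cre. Tek and Tie1, the angiopoietin receptor and its partner, stood at 99.1 CPM each in wild-type. Ramp2, which pairs with the adrenomedullin receptor, and Itm2a, a membrane protein of brain endothelium, were among the most abundant at 1060 and 981 CPM. Among the transcription factors Ets1 held 329 CPM, Sox18 136 CPM, Fli1 116 CPM, Sox17 89.2 CPM and Erg 74.3 CPM in wild-type. Sox17 lay within the interval of Erg (50.1 to 106 CPM), so these neighbours do not differ beyond counting error.

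The 20 genes with the largest fold over other wild-type cells, outside the 7 markers, included 6 of the identity list (Cyyr1, Ly6a, Sox18, Tek, Icam2 and Sox17). Cyyr1 led with 86.7 CPM in endothelial cells against 1.76 CPM in other cells, a ratio of 49.2, and Ctsw, a cathepsin, followed with 107 against 2.16 CPM. The signalling and barrier lists gave Acvrl1 (an endothelial BMP receptor, ratio 32.8), Aplnr (the apelin receptor, 31.8), Ocln (occludin, 33.8), Abcb1a (the P-glycoprotein pump, 32.2) and Foxq1 (29.5). The most abundant of the 20 were Vwa1, a matrix protein, at 877 CPM and Pglyrp1, a peptidoglycan recognition protein, at 870 CPM, each in at least 82 of 144 cells. The others were Slfn5, Ptgis (prostacyclin synthase), She, C130074G19Rik and Mecom, all between 49.5 and 109 CPM. Cldn11, a claudin of myelin and meninges, also made the list with 23 UMIs, but they came from 2 cells, and 1 of them gave 95.7%, so this rank rests on that cell. No Cldn11 UMI was found in either mutant library's endothelial cells.

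The transporters of the barrier were expressed broadly. Of 22 listed, 19 could be measured and 11 were at least 10-fold higher in wild-type endothelial cells than in other cells. Slc2a1, the glucose transporter of the barrier, stood at 263 CPM (215 to 318) in wild-type, 434 CPM (339 to 548) in nestin-Cre and 258 CPM (221 to 299) in Emx1-Cre. Mfsd2a, which imports lipids with docosahexaenoic acid and keeps vesicle transport low, stood at 438, 495 and 371 CPM in the same order, with intervals that overlap. Slc16a1, the monocarboxylate transporter that carries lactate and ketone bodies, stood at 570, 1174 and 679 CPM. The thyroxine carrier Slco1c1 held 619 CPM in wild-type, and astrocytes and radial glia 134 CPM. For amino acids, Slc38a5 stood at 523 CPM, Slc7a1 at 448 CPM and Slc7a5 at 458 CPM in wild-type, and Slc3a2, the partner chain of Slc7a5 that many cells use, at 917 CPM. Tfrc, the transferrin receptor, held 674 CPM, and Slc40a1, the iron exporter ferroportin, 213 CPM. The efflux pumps Abcb1a and Abcg2 stood at 99.1 and 154 CPM. The thiamine carrier Slc19a3 was the rarest of the list with 4, 1 and 4 UMIs.

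Against wild-type, the transporter list lay higher in nestin-Cre, with a median difference of 0.56 on the log2 scale over 20 measured genes (0.39 to 0.73, order statistics), and 1 of them, Slc16a1, was at least 2-fold higher. Of all genes with at least 20 UMIs over both libraries, 5.6% were at least 2-fold higher and 8.67% lower. Without mixed cells the median was 0.27 and no transporter passed 2-fold, against 6.54% of genes higher and 6.49% lower. In Emx1-Cre the median was -0.21 (-0.33 to 0.03) over 21 genes, and 0.22 (-0.07 to 0.58) without mixed cells, so the direction turned with the cells chosen. No transporter passed 2-fold in Emx1-Cre, where 4.79% of all genes were higher and 1.92% lower, and 5.07% and 4.84% without mixed cells. The identity list moved in the same manner, with medians of 0.48 and 0.33 in nestin-Cre, and -0.20 and 0.29 in Emx1-Cre.

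**Figure D3:**
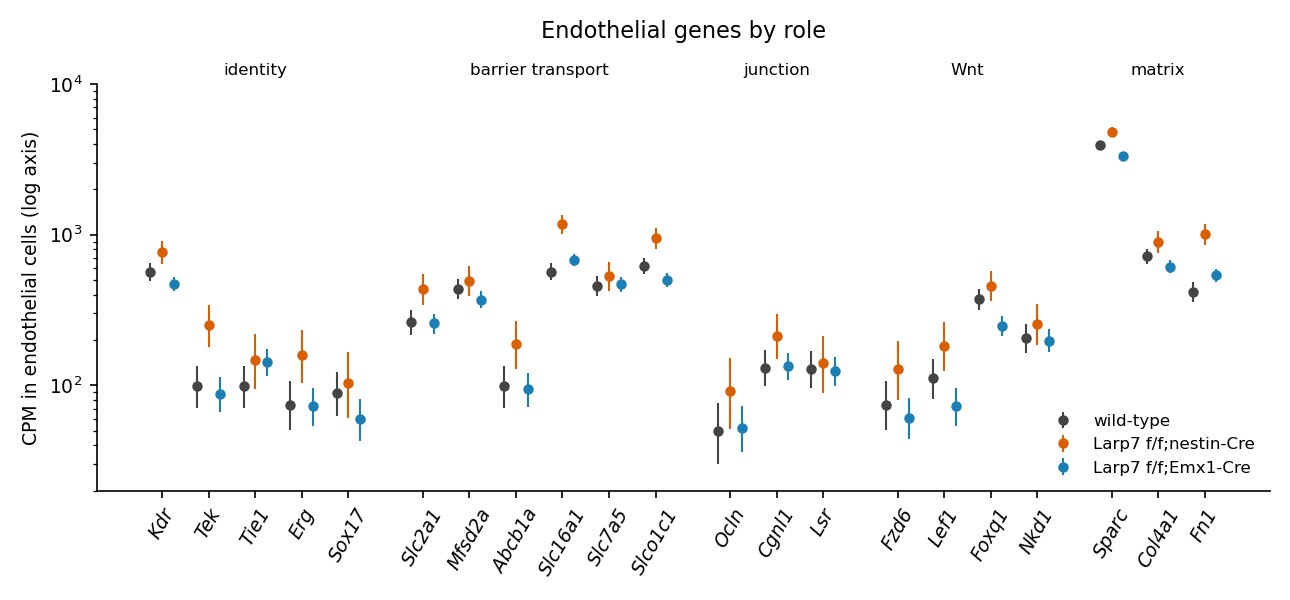
CPM (log axis) of 21 endothelial genes grouped by role in the endothelial cells of the 3 libraries, with 95% exact Poisson intervals. Slc2a1 stood at 263, 434 and 258 CPM and Slc16a1 at 570, 1174 and 679 CPM in wild-type, nestin-Cre and Emx1-Cre, while the intervals of Mfsd2a overlap.

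Of the junction genes outside the rule, Ocln, Lsr and Cgnl1 passed 10-fold over other wild-type cells, and 10 of 12 could be measured. Ocln stood at 49.5 CPM in wild-type, 91.7 CPM in nestin-Cre and 52.1 CPM in Emx1-Cre. Lsr, a protein of tricellular junctions, stood at 129, 141 and 124 CPM, and Cgnl1, a junctional scaffold, at 131, 214 and 134 CPM. Tjp1, which links claudins to actin, stood at 213 CPM and was 3.74-fold above other cells. Marveld2 (tricellulin) and Cldn12 had between 0 and 5 UMIs per library. No junction gene differed 2-fold or more from wild-type in either mutant library, whereas without mixed cells 2 of 6 measured, Cgnl1 and Vcl, were at least 2-fold higher in Emx1-Cre, against 5.07% of all genes.

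Genes of vesicle transport were low. Plvap, which forms the diaphragm of leaky fenestrated vessels and is lost as the barrier closes, gave 2, 2 and 0 UMIs, or 4.95 CPM (0.6 to 17.9) in wild-type and 12.2 CPM (1.48 to 44.2) in nestin-Cre. In Emx1-Cre 0 of 671253 UMIs allows a level of up to 4.47 CPM. Cav1, the caveolar coat protein, stood at 81.8, 97.8 and 90.9 CPM, and the caveolar protein Cavin1 (listed in the files under its older name Ptrf) at 71.8, 79.5 and 107 CPM. Cavin1 was the 1 member of 5 measured that was at least 10-fold above other wild-type cells. Cav2, the second caveolar coat protein, stood at 56.98, 85.6 and 28.3 CPM and was the 1 member at least 2-fold lower in Emx1-Cre, against 1.92% of all genes. Without mixed cells Cav2 was not measured, and Cavin1 was 2.22-fold (0.966 to 5.28) higher in Emx1-Cre.

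Receptors and targets of Wnt signalling were present in all 3 libraries. Fzd6 held 74.3 CPM and Fzd4, the receptor of Norrin, 39.6 CPM in wild-type. The co-receptors Lrp6 and Lrp5 held 34.7 and 12.4 CPM, and Adgra2, which with Reck makes the receptor complex for Wnt7 ligands, 39.6 CPM. Reck itself had 1, 0 and 3 UMIs. Among transcription factors, Foxq1 stood at 372, 459 and 249 CPM, and Lef1, which carries the Wnt signal to DNA, at 111, 183 and 73.0 CPM. The feedback inhibitors Nkd1 and Notum held 206 and 66.9 CPM in wild-type. Foxf2, a forkhead factor of brain vessels, stood at 52.0 CPM (21 UMIs) in wild-type, 165 CPM (27 UMIs) in nestin-Cre and 99.8 CPM (67 UMIs) in Emx1-Cre. Of 11 Wnt list genes measured in nestin-Cre it was the 1 past 2-fold, with a ratio of 3.17 (1.73 to 5.9). Mural cells also express Foxf2, and wild-type mural and stromal cells held 86.8 CPM.

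Among angiogenic receptors Nrp1, a VEGF and semaphorin co-receptor, stood at 339 CPM in wild-type and Plxnd1, a semaphorin receptor, at 107 CPM. Flt4, the VEGF-C receptor, held 47.1 CPM. The ligands were scarce in endothelial cells, with 2, 4 and 5 UMIs of Angpt2 and 7, 0 and 19 UMIs of Vegfa. Plxnd1 and Tek were at least 2-fold higher in nestin-Cre than in wild-type, with ratios of 2.58 (1.66 to 4.02) and 2.53 (1.60 to 4.01). Without mixed cells the Tek ratio was 1.83 (0.996 to 3.403), an interval that includes 1. Without mixed cells the Plxnd1 ratio was 2.10 in nestin-Cre and 2.12 in Emx1-Cre, and Tie1 reached 2.47 (1.39 to 4.47) in Emx1-Cre.

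Of 12 Notch genes 3 could be measured against other wild-type cells, and none was 10-fold higher. Notch1 stood at 178 CPM in wild-type endothelial cells and 124 CPM in other cells, and Hes1, a target that other pathways also induce, at 374 against 114 CPM. Dll4, the ligand of sprouting and arterial cells, gave 11, 10 and 16 UMIs, and Notch4, the endothelial receptor, 17, 11 and 18 UMIs, which in wild-type is 42.1 CPM against 8.66 CPM in other cells. Of BMP genes, Eng (386 CPM in wild-type) and Acvrl1 (124 CPM), which together receive BMP9, passed 10-fold over other cells. Their targets Id1 and Id3 stood at 297 and 508 CPM, against 201 and 648 CPM in other cells, where glia express them. Smad6 and Smad9 had at most 5 and 1 UMIs per library, and Bmp6 none.

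Most cells carried capillary genes. At least 1 UMI of 7 capillary genes was found in 136 of 144 wild-type cells (94.4%), 30 of 31 in nestin-Cre and 118 of 118 in Emx1-Cre. The share was 15.8% in wild-type microglia (median 1994 UMIs) and 23.1% in the wild-type granule lineage (median 2642 UMIs), which should lack most of them. Spock2 stood at 1016 CPM, Gng11 at 609 CPM and Car4, a carbonic anhydrase of the capillary surface, at 508 CPM in wild-type. At least 1 of 6 venous genes was seen in 62.5% of wild-type endothelial cells, against 5.74% of microglia and 11.3% of the granule lineage. Slc38a5, which is also on the transporter list, was detected in 67 of the 144 cells and Vwf, the clotting factor carrier, in 37. Ackr1, of postcapillary venules, gave 6, 1 and 15 UMIs, and stood at 14.9 CPM in wild-type endothelial cells against 24.5 CPM in other wild-type cells.

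Few arterial genes were detected. Gkn3, Bmx, Gja5 and Cytl1 had no UMI in any of the 293 endothelial cells. In wild-type 0 of 144 cells allows a share of up to 2.08%, in nestin-Cre up to 9.68% and in Emx1-Cre up to 2.54%, which limits cells with a UMI and not cells that express the gene. At least 1 of 7 arterial genes was found in 23.6% of wild-type endothelial cells, against 7.25% in the granule lineage and 4.07% in microglia. The share was 19.4% in nestin-Cre and 39.0% in Emx1-Cre. Without mixed cells it was 14.3% (10 of 70) in wild-type, 23.8% (5 of 21) in nestin-Cre and 54.2% (13 of 24) in Emx1-Cre. Such shares rise with depth, and the mutant cells were deeper. The 7 genes gave 71 of 403666 UMIs in wild-type, 10 of 163542 in nestin-Cre and 80 of 671253 in Emx1-Cre. Without mixed cells they gave 25 of 151134, 9 of 106236 and 28 of 99172. Per UMI both mutant libraries were thus lower over all cells, and only Emx1-Cre was higher without mixed cells. Gja4, a gap junction protein of arteries, gave 40 UMIs in 16 wild-type cells, 5 in 3 cells of nestin-Cre and 41 in 22 cells of Emx1-Cre. Cxcl12 stood at 198 CPM in wild-type, but 1 of its 13 cells gave 45.0% of the UMIs.

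At least 1 of 7 tip cell genes was found in 42.4% of wild-type endothelial cells, against 13.6% of microglia and 2.27% of the granule lineage. Apln, the apelin ligand of sprouting vessels, was 146 CPM (59 UMIs) in wild-type, 306 CPM (50 UMIs) in nestin-Cre and 185 CPM (124 UMIs) in Emx1-Cre. Pdgfb, which recruits pericytes, stood at 119, 110 and 80.4 CPM, and Adm, adrenomedullin, at 54.5, 30.6 and 50.7 CPM. Esm1 gave 3, 0 and 1 UMIs, with all 3 wild-type UMIs in 1 cell, and Kcne3 gave none. Apln without mixed cells was 146, 414 and 585 CPM, with ratios to wild-type of 2.85 (1.67 to 4.98) and 4.02 (2.42 to 6.89). Its receptor Aplnr stood at 178, 159 and 142 CPM. In wild-type, 34.7% of cells held both a venous and a tip gene and 16.0% both a venous and an arterial gene, so detection of these short lists did not separate the cells into classes.

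The basement membrane was among the strongest products. Sparc, a collagen-binding matrix protein, stood at 3959 CPM in wild-type, 4818 CPM in nestin-Cre and 3331 CPM in Emx1-Cre, and wild-type microglia held 1749 CPM. Col4a1 and Col4a2, the chains of the main collagen IV, stood at 718 and 513 CPM, and Hspg2 (perlecan), Lama4 and Nid1 at 126, 131 and 196 CPM. Of 12 measured genes 6 passed 10-fold over other wild-type cells. Fn1, fibronectin, stood at 416 CPM (168 UMIs) in wild-type, 1009 CPM (165 UMIs) in nestin-Cre and 538 CPM (361 UMIs) in Emx1-Cre. Its ratio was 2.42 (1.94 to 3.02) in nestin-Cre and 2.07 (1.55 to 2.78) without mixed cells. Lamc1, a laminin chain, was the other member past 2-fold there, with a ratio of 2.11 (1.30 to 3.39), which makes 2 of 12 measured, against 5.6% of all genes.

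Class I and interferon genes were at moderate level. H2-D1 and B2m, the class I chain and its partner, stood at 198 CPM each in wild-type, and Ifitm3, an antiviral membrane protein, at 116 CPM. Ifit1 and Ifit3 gave 1 UMI each in wild-type. No member of this list differed 2-fold from wild-type, out of 6 measured in nestin-Cre and 8 in Emx1-Cre. Of all genes, 5.6% were higher and 8.67% lower in nestin-Cre, and 4.79% and 1.92% in Emx1-Cre. The list medians were 0.63 and 0.36 on the log2 scale, and 0.35 and 0.53 without mixed cells.

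Markers of other vessel-associated cells were checked in full. Of 6 perivascular macrophage markers, Mrc1 and Pf4 gave 1 UMI each in Emx1-Cre, the other 4 were at 0 in all endothelial cells, and all 6 were at 0 in wild-type and nestin-Cre. Mural markers summed to 1620, 306 and 1628 CPM, with Rgs5, a pericyte gene, at 761, 171 and 596 CPM and Acta2, of smooth muscle, at 0 in all 3. Over cells that met no other rule they summed to 496, 65.9 and 272 CPM. Stromal markers summed to 106, 61.2 and 137 CPM, with Col1a1, Lum and Mfap5 at 0. Microglia markers summed to 163, 134 and 191 CPM, against 23553 CPM in wild-type microglia. Granule lineage markers summed to 4697, 4384 and 6415 CPM and glial markers to 3411, 673 and 4745 CPM, and oligodendrocyte precursor markers to 310, 141 and 454 CPM. Interneuron markers gave 14.9, 0 and 11.9 CPM. Over cells that met no other rule, the glial sum was 2157 CPM in wild-type and 433 and 786 CPM in the mutant libraries, and the granule lineage sum 2501, 1120 and 1150 CPM. The rules use some of these genes, so the lower sums follow in part from the choice of cells.

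Larp7 encodes the protein that binds and stabilizes 7SK RNA, the scaffold that holds the elongation factor P-TEFb (CDK9 with cyclin T) inactive together with HEXIM and MEPCE. In endothelial cells 20 UMIs of Larp7 were counted in wild-type (49.5 CPM, 30.3 to 76.5), 10 in nestin-Cre (61.1 CPM, 29.3 to 112) and 29 in Emx1-Cre (43.2 CPM, 28.9 to 62.0). The ratios to wild-type were 1.23 (0.516 to 2.76) and 0.872 (0.477 to 1.63). Over cells that met no other rule there were 5, 9 and 9 UMIs, or 33.1, 84.7 and 90.8 CPM, and over cells that did meet another rule 15, 1 and 20 UMIs, or 59.4, 17.5 and 35.0 CPM. Ratios to wild-type were above 1 in the first set (2.56 and 2.74) and below 1 in the second (0.294 and 0.589), with intervals that include 1 in each case. In the granule lineage, Larp7 stood at 58.6 CPM in wild-type, 10.5 CPM in nestin-Cre and 13.3 CPM in Emx1-Cre, with ratios of 0.179 (0.146 to 0.218) and 0.227 (0.187 to 0.273). In astrocytes and radial glia the ratios were 0.192 and 0.197. The intervals over all endothelial cells lie above those of the neural classes in both mutant libraries. Microglia, which like endothelium do not come from the neural tube, stood at 62.8, 37.6 and 48.1 CPM, with ratios of 0.599 (0.399 to 0.894) and 0.765 (0.481 to 1.196). The values are counts per gene from 3′ tags and were not split by exon, so they report the amount of Larp7 RNA and not the deletion itself.

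**Figure D4:**
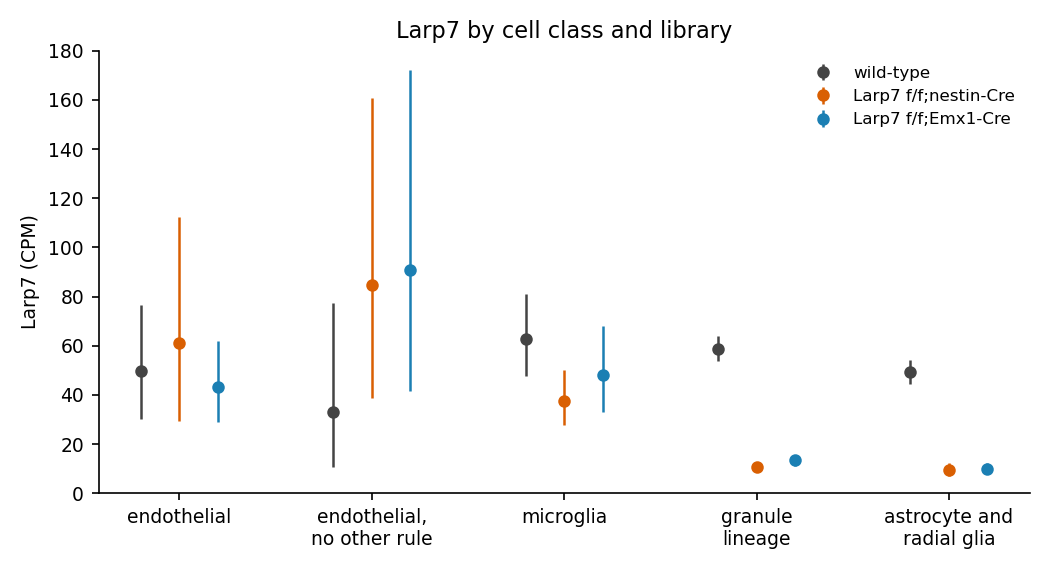
Larp7 (CPM) in endothelial cells, endothelial cells that met no other rule, microglia, granule lineage, and astrocytes with radial glia of the 3 libraries, with 95% exact Poisson intervals. The granule lineage stood at 58.6 CPM in wild-type and 10.5 and 13.3 CPM in the mutant libraries, and endothelial cells at 49.5, 61.1 and 43.2 CPM.

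The other 7SK and P-TEFb genes were rare in endothelial cells. Cdk9 stood at 44.6, 61.1 and 56.6 CPM, Ccnt1 at 61.9, 42.8 and 80.4 CPM, Ccnt2 at 32.2, 73.4 and 26.8 CPM, Hexim1 at 42.1, 67.3 and 34.3 CPM and Mepce at 17.3, 48.9 and 26.8 CPM in wild-type, nestin-Cre and Emx1-Cre. Between 7 and 54 UMIs per library were behind each of these values. Of 5 members with at least 20 UMIs over both libraries in nestin-Cre, 1 was at least 2-fold higher, against 5.6% of all genes. This was Ccnt2, from 13 and 12 UMIs. Mepce, with 7 and 8 UMIs, was under that limit. In Emx1-Cre 0 of 6 members passed 2-fold, against 4.79% of all genes higher and 1.92% lower. Without mixed cells no member could be measured.

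In the comparison of the nestin-Cre library with wild-type, 61 of 1908 genes with at least 50 UMIs over both libraries (3.2%) were at least 2-fold higher and 108 (5.66%) at least 2-fold lower. In the Emx1-Cre comparison 53 of 3637 (1.46%) were at least 2-fold higher and 30 (0.825%) lower. The median over all genes was 0.01 and 0.04 on the log2 scale. These are differences between pairs of libraries. The limit was set on UMIs summed over both, so genes higher in the library with more endothelial UMIs reached it more readily. The counts each way therefore do not give a net direction. Without mixed cells the counts were 27 and 24 genes in nestin-Cre and 8 and 16 in Emx1-Cre.

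Among the 5 genes with the largest ratio in nestin-Cre, Fosb, an immediate early factor, stood at 114 CPM (46 UMIs) in wild-type, 489 CPM (80 UMIs) in nestin-Cre and 122 CPM (82 UMIs) in Emx1-Cre. Its ratio in the nestin-Cre library was 4.29 (2.95 to 6.31), and 1 cell gave 35.0% of its UMIs there, without which the level was 346 CPM. Fam13a stood at 52.0 and 183 CPM, Ly75, an endocytic receptor, at 64.4 and 202 CPM, and Adamts1, a secreted protease, at 59.5 and 190 CPM in wild-type and nestin-Cre. Neurod1, a neuronal factor of the granule lineage, stood at 159 and 514 CPM, but at 52.9 and 18.8 CPM over cells that met no other rule, so its direction turned without the mixed cells. Among the lowest were the globins Hba-a1, Hba-a2, Hbb-bs and Hbb-bt. Hba-a1 gave 3000 UMIs in wild-type and 1 in nestin-Cre, a ratio of 0.000823 (2.08e-05 to 0.00459).

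In Emx1-Cre the 5 genes with the largest ratio were Ly6h (19.8 and 68.5 CPM), Clu (54.5 and 180 CPM), Hif1a (24.8 and 81.9 CPM), Ank3 (34.7 and 109 CPM) and Pcna (24.8 and 76.0 CPM), the first value being wild-type. Clu and Ank3, which astrocytes and neurons use, stood at 46.3 and 50.4 CPM and at 19.8 and 30.3 CPM over cells that met no other rule. Hif1a, the hypoxia factor, stood at 46.3 and 131 CPM there, from 7 and 13 UMIs. Among the lowest were Mbp and Cnp, genes of myelin, and Hba-a1 and Hba-a2. All 135 wild-type UMIs of Mbp came from 1 cell.

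Early response genes, which dissociation induces, had the highest summed level in the nestin-Cre library. Their 16 genes summed to 5145 CPM in wild-type, 9484 CPM in nestin-Cre and 5667 CPM in Emx1-Cre. Of 14 measured, 7 were at least 2-fold higher in nestin-Cre, against 5.6% of all genes, with a median of 0.99 on the log2 scale, and 0 of 16 in Emx1-Cre, against 4.79%, with a median of 0.10. Without mixed cells 10 of 14 were at least 2-fold higher in nestin-Cre, against 6.54% of all genes, with a median of 1.30. Egr1 stood at 305, 825 and 375 CPM, Fos at 652, 1382 and 937 CPM, and Hsp90aa1, a heat shock protein, at 746, 709 and 793 CPM. One of the 31 nestin-Cre cells gave 25.3% of the UMIs of the list, and without it the sum was 7706 CPM. Per cell, the median was 46.7 UMIs per 10000 in wild-type, 52.4 in nestin-Cre and 49.8 in Emx1-Cre, with ranges of 0 to 163, 0 to 296 and 4.91 to 240. The cells of the 3 libraries overlapped throughout, and the sum, in which deep cells weigh more, differed more between libraries than the median cell. Over cells that met no other rule the sums were 5115, 11456 and 5727 CPM. In microglia the same list summed to 9649, 9576 and 9308 CPM, and in the granule lineage to 3762, 3824 and 4614 CPM.

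Cdkn1a, the cell cycle inhibitor p21 and a target of p53, was looked at after its values were seen. It stood at 134 CPM in wild-type (54 UMIs in 32 of 144 cells), 391 CPM in nestin-Cre (64 UMIs in 21 of 31 cells) and 90.9 CPM in Emx1-Cre (61 UMIs in 36 of 118 cells). The ratios to wild-type were 2.93 (2.00 to 4.28) and 0.679 (0.463 to 0.999). Without the cell that gave most UMIs the nestin-Cre level was 319 CPM. Over cells that met no other rule the levels were 126, 489 and 202 CPM, and the Emx1-Cre ratio was then 1.60 (0.813 to 3.18), on the other side of 1. Wild-type microglia held 415 CPM.

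**Figure D5:**
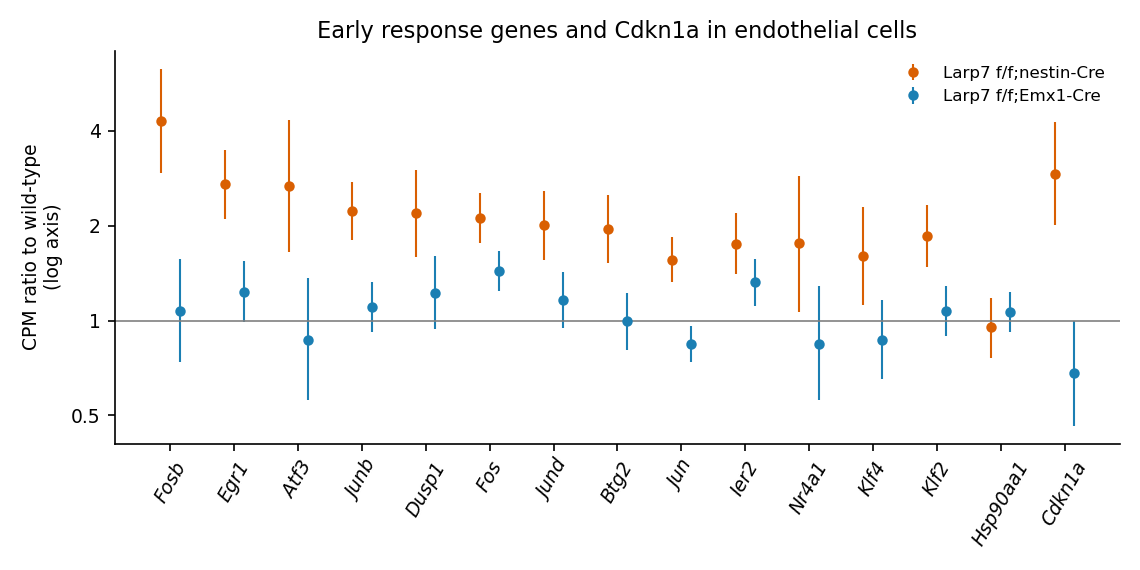
Ratio of CPM in endothelial cells of each mutant library to wild-type (log axis) for 14 early response and flow genes and for Cdkn1a, with 95% conditional binomial intervals. Fosb reached 4.29 and Cdkn1a 2.93 in nestin-Cre, while Hsp90aa1 stood at 0.95, and in Emx1-Cre Fosb was at 1.07 and Cdkn1a at 0.679.

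Klf2 and Klf4, factors that blood flow induces in endothelium and that dissociation can also raise, stood at 461, 856 and 495 CPM and at 206, 330 and 179 CPM. Nos3, endothelial nitric oxide synthase, stood at 84.2, 85.6 and 59.6 CPM. The ratio of Klf2 in nestin-Cre was 1.86 (1.48 to 2.33).

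Mitotic genes were lowest in the nestin-Cre endothelial cells. At least 2 UMIs of 16 mitotic genes were found in 73 of 144 wild-type cells (50.7%), 6 of 31 nestin-Cre cells (19.4%) and 83 of 118 Emx1-Cre cells (70.3%). Thinned to 1500 UMIs per cell, which left out 56, 5 and 1 shallower cells, the shares were 51.1% (40.2 to 61.9), 7.69% (0.946 to 25.1) and 45.3% (36.1 to 54.8). Over cells that met no other rule the thinned shares were 34.5% (10 of 29 cells), 6.25% (1 of 16) and 13.04% (3 of 23), with intervals that overlap, after 41 of 70 wild-type cells, 5 of 21 and 1 of 24 were left out as too shallow. Granule lineage cells, many of which no longer divide, gave 18.7%, 7.75% and 10.4% at the same depth, and microglia 21.5%, 17.8% and 26.3%. Astrocytes and radial glia gave 25.4%, 14.6% and 17.4%. The nestin-Cre endothelial share came from 2 of 26 cells. Its interval covers the nestin-Cre shares of the granule lineage, microglia, and astrocytes with radial glia alike. Cenpf, a kinetochore protein, stood at 248 CPM, 85.6 CPM and 155 CPM, and Ube2c, which drives exit from mitosis, at 268, 67.3 and 167 CPM. In nestin-Cre 1 cell gave 81.8% of the Ube2c UMIs. Of 12 measured mitotic genes, 8 were at least 2-fold lower in nestin-Cre, against 8.67% of all genes with at least 20 UMIs, and 0 of 13 were in Emx1-Cre, against 1.92%. Without mixed cells only 4 of the 16 genes could be measured. All 4 were at least 2-fold lower in both mutant libraries, against 6.49% and 4.84% of all genes. Their medians were -2.66 in nestin-Cre and -1.16 in Emx1-Cre on the log2 scale. The wild-type set held more UMIs (151134 against 106236 and 99172), so lower genes reached the limit of 20 UMIs mainly through wild-type. Both comparisons also share that wild-type set, and the counts of lower genes are a description only. Over wild-type endothelial cells no mitotic gene was 10-fold above other cells, and the median was -0.33 on the log2 scale. DNA replication genes summed to 525, 416 and 661 CPM, and of these Pcna, the replication clamp, was more than 2-fold higher in Emx1-Cre.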

How the data were processed

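Single-cell RNA of P7 dentate gyrus was measured in 3 libraries with 10x Genomics 3′ chemistry. The deposited values are whole UMI counts per gene and barcode, which the authors made with Cell Ranger without normalization. The file headers name version 4.0.0 and the study's methods another. Neurosphere RNA-seq, ATAC-seq and CUT&Tag were not analysed here.

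The filter on cells (over 500 genes, under 15% mitochondrial UMIs) uses the limits in the study's methods. It kept 10997 wild-type, 6685 nestin-Cre and 6531 Emx1-Cre cells, fewer than the study reports for each. Endothelial shares are out of these counts. The authors' integration and cell names were not used, and doublets were kept. UMIs were summed per library and set of cells and divided by the total (CPM). Because each 3′ UMI is 1 transcript tag, CPM was not divided by gene length. No test was made, since every genotype is 1 library. Intervals are 95% exact Poisson (levels), exact binomial (shares), conditional binomial (ratios) and order statistic (medians) intervals, and cover counting error only. A count of 0 was taken to allow 3 counts. Ratios between libraries were counted for genes with at least 50 UMIs over both (20 within lists), and folds over other cells with at least 20 UMIs in endothelial cells. Cells of other classes are those meeting 1 rule only and not the endothelial rule.

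The members and the 31 gene lists (342 genes) were chosen with earlier results of these data known. Named genes are list members, the 20 largest folds over other wild-type cells, the 5 largest ratios each way per mutant library, and Larp7; some of these are not reported here. Promoters were taken from RefSeq on GRCm38.p6. Alternatives were other marker, gene, UMI and mural limits, thinning to 1500 UMIs, leaving out mixed cells and, added after seeing the data, leaving out haemoglobin. The steps were tested on simulated data. Python 3.11.15, numpy 2.4.6, scipy 1.17.1, pandas 2.3.3 and matplotlib 3.10.9 were used.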

Additional observations from a re-analysis of the deposited data

How the results depend on the processing

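Of 156 alternative values over 14 results, 111 moved by less than their interval (counts by less than 1.5 times) and 45 moved further. The Emx1-Cre transporter median, -0.21 on the log2 scale as reported, was above 0 in 4 of these settings, and the Emx1-Cre endothelial share passed from above to below wild-type without mixed cells. No paired analysis was possible because each genotype is 1 library and the results come from no test. Leaving out cells that met another rule moved the endothelial share to 0.637% (wild-type), 0.314% (nestin-Cre) and 0.367% (Emx1-Cre), the mitotic share to 38.6% (wild-type) and 20.8% (Emx1-Cre), the genes past 2-fold to 27 higher and 24 lower (nestin-Cre) and 8 and 16 (Emx1-Cre), the transporter median to 0.27 and 0.22, and the Emx1-Cre Larp7 ratio to 2.74. With 4 markers the shares were 0.627% (wild-type) and 1.47% (Emx1-Cre), the wild-type mitotic share 42.0%, and the nestin-Cre counts 35 and 46. With 2 markers the wild-type share was 2.44% and the Emx1-Cre transporter median 0.062. With none of the 4 mural genes allowed, the shares were 1.06% (wild-type) and 1.03% (Emx1-Cre), the Emx1-Cre mitotic share 52.2%, the nestin-Cre lower count 70 and the Emx1-Cre counts 21 and 15. With more than 1000 genes per cell the wild-type mitotic share was 61.5%. Thinning every cell to 1500 UMIs before the rule gave mitotic shares of 34.5%, 7.14% and 37.5%, Larp7 ratios of 3.00 (nestin-Cre, 0.402 to 22.4) and 2.33 (Emx1-Cre, 0.560 to 13.7), counts of 12 and 19 (nestin-Cre) and 8 and 9 (Emx1-Cre), and transporter medians of 0.81 and 0.12. A limit of 100 UMIs per gene gave 20 and 31 (nestin-Cre) and 11 and 9 (Emx1-Cre) genes, and one of 20 UMIs 257 and 398, and 334 and 134. Thinned cells and higher limits hold fewer genes that can be counted. Leaving out cells with over 5% haemoglobin, or haemoglobin genes, moved none of the results past these limits. The nestin-Cre library has 31 endothelial cells, and its Larp7 value rests on 10 UMIs.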
